A study of Mus musculus with 8 samples.

Results

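The interferon-stimulated genes described here are 43 mouse genes whose transcription is induced by interferons. They comprise the Ifit, OAS, Mx, guanylate-binding protein (GBP), immunity-related GTPase (IRG), IFITM and PARP families together with RNA sensors, the Isg15 system and further antiviral effectors. Genes were found by the gene name printed for each microarray probe, and the probe with the highest mean log2 signal stood for its gene. A gene was kept if its probe was well above background on most spots of both arrays in 1 cell type or more, and all 43 of the 43 listed genes met this rule. They are 43 of 29924 gene names on the array, of which 15763 passed the same detection rule and were tested.

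The study compared follicular CD4 T cells of immunized lymph nodes and of Peyer's patches with each other and with naïve T or Treg cells. The samples described here are those of the lymph nodes. Follicular helper T cells (TFH) help B cells in the germinal center, and follicular regulatory T cells (TFR) are Foxp3+ cells that restrain this response. Both were sorted from peripheral lymph nodes (pLN) of Foxp3 reporter mice, which express GFP together with Foxp3 (strain B6.Cg-Foxp3tm1Mal), after s.c. immunization with the protein KLH in alum. RNA was measured on Agilent 1-color oligonucleotide arrays with 25 ng RNA per sample. All gates were set on CD4+ B220- cells. Naïve CD4 T cells were GFP- PD1lo GL7-, TFH cells GFP- PD1hi GL7+, Treg cells GFP+ PD1lo GL7-, and TFR cells GFP+ PD1hi and either GL7+ or GL7-. TFH cells were thus selected for the GL7 epitope and TFR cells were not. All 4 cell types came from immunized mice, and no cells of unimmunized mice are among the groups. Every sample was a pool of cells from 8 to 15 mice of mixed sex aged 8 to 14 weeks.

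Each cell type was represented by 2 arrays, a d12 and a d25 array (days post immunization), so the day served as the replicate and each group had n = 2. For these cells 3 independent experiments are described at d12 and 2 at d25, and 1 array per cell type and day was analysed here. The p-values therefore measure only the spread between these 8 arrays, which includes any change with day that differs between cell types. The d12 arrays shared a slide, and at d25 naïve T and TFH cells were on another slide than Treg and TFR cells. Day therefore cannot be told apart from slide, and a comparison between Foxp3+ and Foxp3- cells is also a comparison of slides at d25. Between 86.5% and 89.2% of the spots were retained per array, between 46.3% and 50.4% of the 39429 probes were well above background and none was saturated. Signals are given in relative units (RU), scaled to a 75th percentile of 1500 RU on each array with a floor of 20 RU. A signal depends on its probe as well as on its transcript, so signals are compared between cell types for the same gene and do not rank genes. In such bulk samples, fewer cells expressing a gene and less RNA per cell cannot be told apart.

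As background, type I interferons bind the receptor formed by Ifnar1 and Ifnar2, whose kinases Jak1 and Tyk2 phosphorylate transcription factors of the STAT family. With Irf9 these form the complex ISGF3, which binds the interferon-stimulated response element (ISRE). Interferon gamma, secreted by T and NK cells, acts through Ifngr1 and Ifngr2 and leads to binding at gamma-activated sites (GAS). The induced proteins degrade or sequester foreign RNA, modify proteins with the ubiquitin-like Isg15 or attack vacuoles that hold intracellular microbes, and CD4 T cells carry receptors for both interferon types.

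Promoter sequences are shown first because the genes were grouped by their induction and the elements are visible in many of their promoters. A window from 250 bases before to 50 bases after the start (RefSeq, build GRCm38.p6) was given for 31 of the 43 genes. Below are the 160 bases before the start, read 5′ to 3′ on the strand of the gene, for 9 genes that represent the main families and differ in their values across the 4 cell types. Capitals mark every match to the ISRE core, a pair of GAAA blocks with any 2 bases between them, or to the GAS core TTCNNNGAA, searched on both strands (on the other strand the ISRE blocks read TTTC, and the GAS core is its own reverse complement). The stretches lie at chr19:34640729-34640888 (Ifit1, plus strand), chr19:34583369-34583528 (Ifit3, plus), chr3:142559884-142560043 (Gbp3, plus), chr3:142530176-142530335 (Gbp7, plus), chr11:58199396-58199555 (Igtp, plus), chr11:58214817-58214976 (Irgm2, plus), chr11:48992247-48992406 (Tgtp1, minus), chr8:71537473-71537632 (Bst2, minus) and chr7:140955962-140956121 (Ifitm2, minus).
Ifit1: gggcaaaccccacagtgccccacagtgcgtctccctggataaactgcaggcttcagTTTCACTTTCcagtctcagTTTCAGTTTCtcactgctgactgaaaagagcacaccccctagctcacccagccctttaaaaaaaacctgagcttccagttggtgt
Ifit3: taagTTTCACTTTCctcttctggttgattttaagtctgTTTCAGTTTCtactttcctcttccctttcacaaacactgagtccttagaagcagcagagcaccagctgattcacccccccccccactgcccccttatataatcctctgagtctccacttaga
Gbp3: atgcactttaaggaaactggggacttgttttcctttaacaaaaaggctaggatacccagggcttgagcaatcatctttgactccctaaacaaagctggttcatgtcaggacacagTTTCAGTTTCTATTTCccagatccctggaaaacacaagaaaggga
Gbp7: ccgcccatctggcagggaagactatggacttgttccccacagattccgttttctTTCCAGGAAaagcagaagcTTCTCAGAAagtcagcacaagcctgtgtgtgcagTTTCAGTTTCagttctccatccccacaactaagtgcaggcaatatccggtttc
Igtp: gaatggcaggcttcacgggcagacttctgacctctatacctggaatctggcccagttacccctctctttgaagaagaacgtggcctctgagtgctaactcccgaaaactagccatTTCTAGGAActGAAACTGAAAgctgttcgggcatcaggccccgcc
Irgm2: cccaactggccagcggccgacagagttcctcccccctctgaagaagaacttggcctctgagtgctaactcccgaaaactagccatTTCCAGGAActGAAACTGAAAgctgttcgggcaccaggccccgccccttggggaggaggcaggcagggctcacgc
Tgtp1: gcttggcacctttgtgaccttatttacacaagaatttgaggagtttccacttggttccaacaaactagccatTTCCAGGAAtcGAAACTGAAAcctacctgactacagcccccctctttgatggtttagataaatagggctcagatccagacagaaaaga
Bst2: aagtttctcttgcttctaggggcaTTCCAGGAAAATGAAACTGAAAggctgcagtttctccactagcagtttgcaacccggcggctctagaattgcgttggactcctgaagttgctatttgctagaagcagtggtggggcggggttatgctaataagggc
Ifitm2: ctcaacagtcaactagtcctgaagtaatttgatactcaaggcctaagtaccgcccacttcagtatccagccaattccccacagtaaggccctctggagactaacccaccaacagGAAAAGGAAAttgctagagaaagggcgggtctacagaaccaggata

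Ifit1 and Ifit3 each held 2 separate ISRE cores and no GAS core, and in Gbp3 2 overlapping ISRE cores formed a single run. In Igtp, Irgm2 and Tgtp1 a GAS core was followed after 2 bases by an ISRE core, and the Igtp and Irgm2 stretches shared an identical run of 38 bases. Bst2 held a GAS core that ran into a pair of overlapping ISRE cores, and Gbp7 held 2 GAS cores and 1 ISRE core. Over the whole 300-base windows, 20 of 31 interferon-stimulated genes (64.5%) held the ISRE core against 3.99% of the 27025 genes with a window. The GAS core was found in 12 of 31 (38.7%) against 9.55%, and both cores in 8 of 31 (25.8%) against 0.614%. Matches to these letters are a description of the windows, and no binding was measured.

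The plot of all 43 genes shows the dominant arrangement, with the highest signals most often in Treg cells and the lowest in TFH cells. By the mean of its 2 arrays, 24 genes were highest in Treg cells (19.3% of all genes tested) and 9 in naïve T cells (34.3%). Another 9 were highest in TFR cells (23.1%) and 1, Isg15, in TFH cells (23.3%). In 18 of the 24 both Treg arrays were above the other 6 arrays, an arrangement found in 6% of all genes tested. Conversely, 28 genes were lowest in TFH cells (26.1% of all genes), in 18 of them with both TFH arrays below the other 6 arrays (11.1%). The order Treg, naïve T, TFR, TFH, from high to low, held for 16 genes and the order naïve T, Treg, TFR, TFH for 6. These orders were not counted over all genes. The median signal of the 43 genes was 3710 RU (d12) and 4090 RU (d25) in naïve T cells, 1544 and 1856 RU in TFH cells, 6177 and 6824 RU in Treg and 3708 and 4260 RU in TFR cells, whereas the median of all genes lay between 1784 and 1819 RU on every array. In limma's moderated F test 37 of the 43 genes differed among the 4 cell types, against 57.7% of all genes tested.

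**Figure D1:**
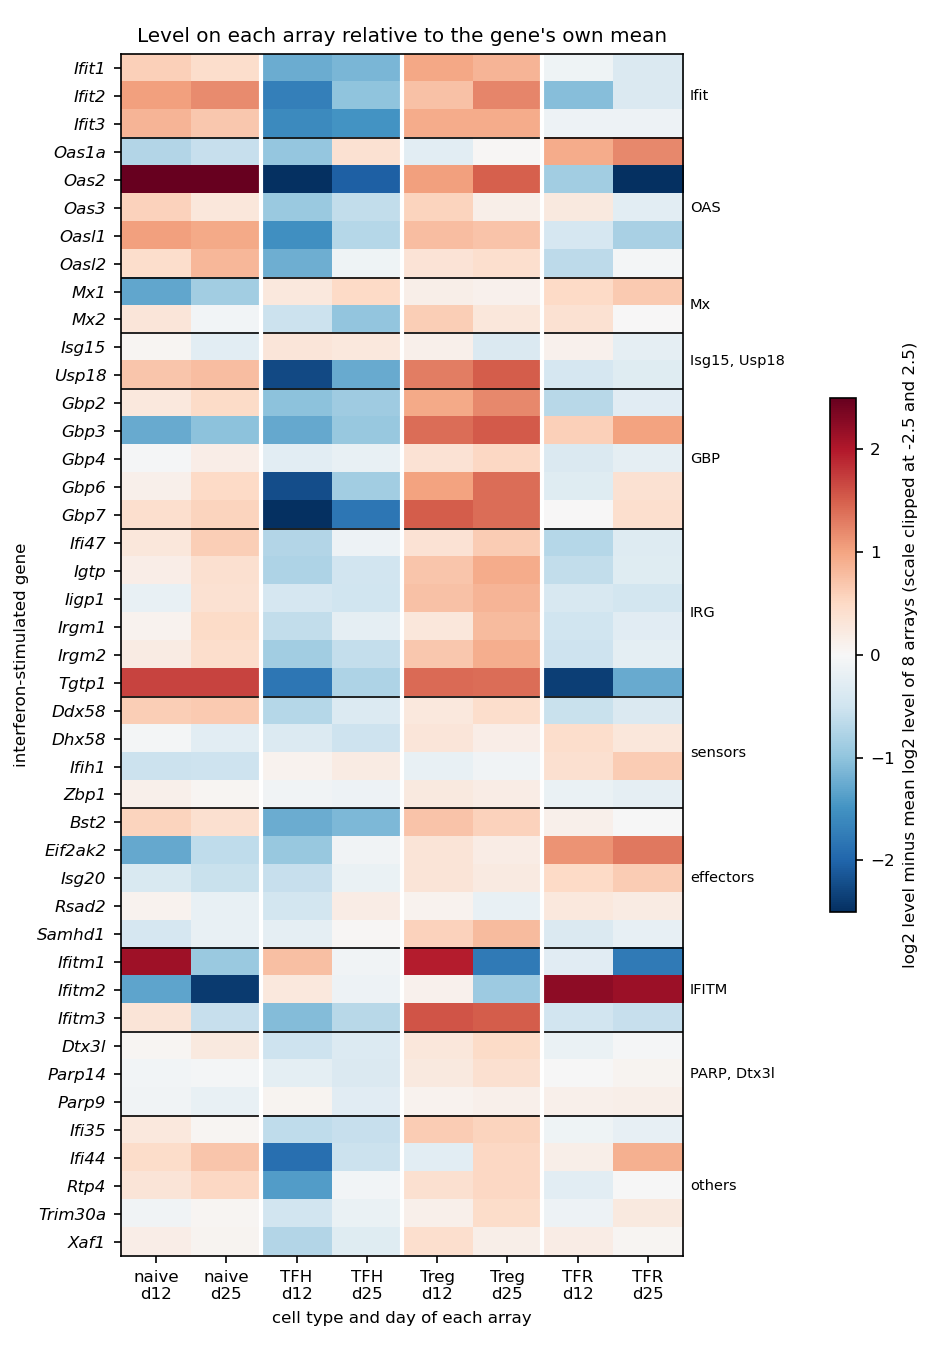
Signal of the 43 interferon-stimulated genes (rows, grouped by family) on the 8 arrays (columns, by cell type and day), as log2 RU minus the mean of the gene and limited to the range of the color scale. Most Ifit, GBP and IRG rows are lowest in TFH cells and highest in Treg cells, whereas Ifitm2, Ifih1, Eif2ak2 and Oas1a are highest in TFR cells.

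In TFH cells, 26 of the 43 genes were lower and 3 were higher than in naïve T cells (limma, Benjamini-Hochberg adjusted p below 0.05 over all 15763 genes). Among all genes, 46.5% were called in this comparison, 25.6% as lower and 20.9% as higher. The median log2 difference of the 43 genes was -0.76, against -0.07 over all genes. In TFR cells, 24 genes were lower and 4 higher than in Treg cells, with a median of -0.73 against -0.08 over all genes, where 39.6% were called, 20.9% as lower and 18.7% as higher. These comparisons share no arrays, but they come from 1 fit with 1 estimate of spread per gene and are not independent tests. Lower in both were 19 genes (14.3% of all genes), namely Bst2, Ddx58, Dtx3l, Gbp2, Gbp4, Gbp6, Gbp7, Ifi35, Ifi47, Ifit1, Ifit2, Ifit3, Igtp, Irgm1, Irgm2, Oas2, Oasl1, Tgtp1 and Usp18. Higher in both were 2, Ifih1 and Ifitm2 (13.4% of all genes). Leaving out 1 array moved the count in TFH cells to between 24 and 28, and 23 of the 29 calls held without each array, the others being Dhx58, Gbp4, Oas3, Oasl2, Rtp4 and Xaf1. The share of all genes called was also lower in each of these fits. Leaving out a Treg or a TFR array lowered the number of calls in TFR cells, among these genes and among all genes. The median difference then lay between -0.76 and -0.56. The calls in TFR cells that held without each array were Gbp2, Gbp4, Ifi47, Ifit1, Ifit2, Ifit3, Ifitm2, Igtp, Irgm1, Irgm2, Samhd1 and Tgtp1. Among the 4 higher genes this was Ifitm2 alone.

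**Figure D2:**
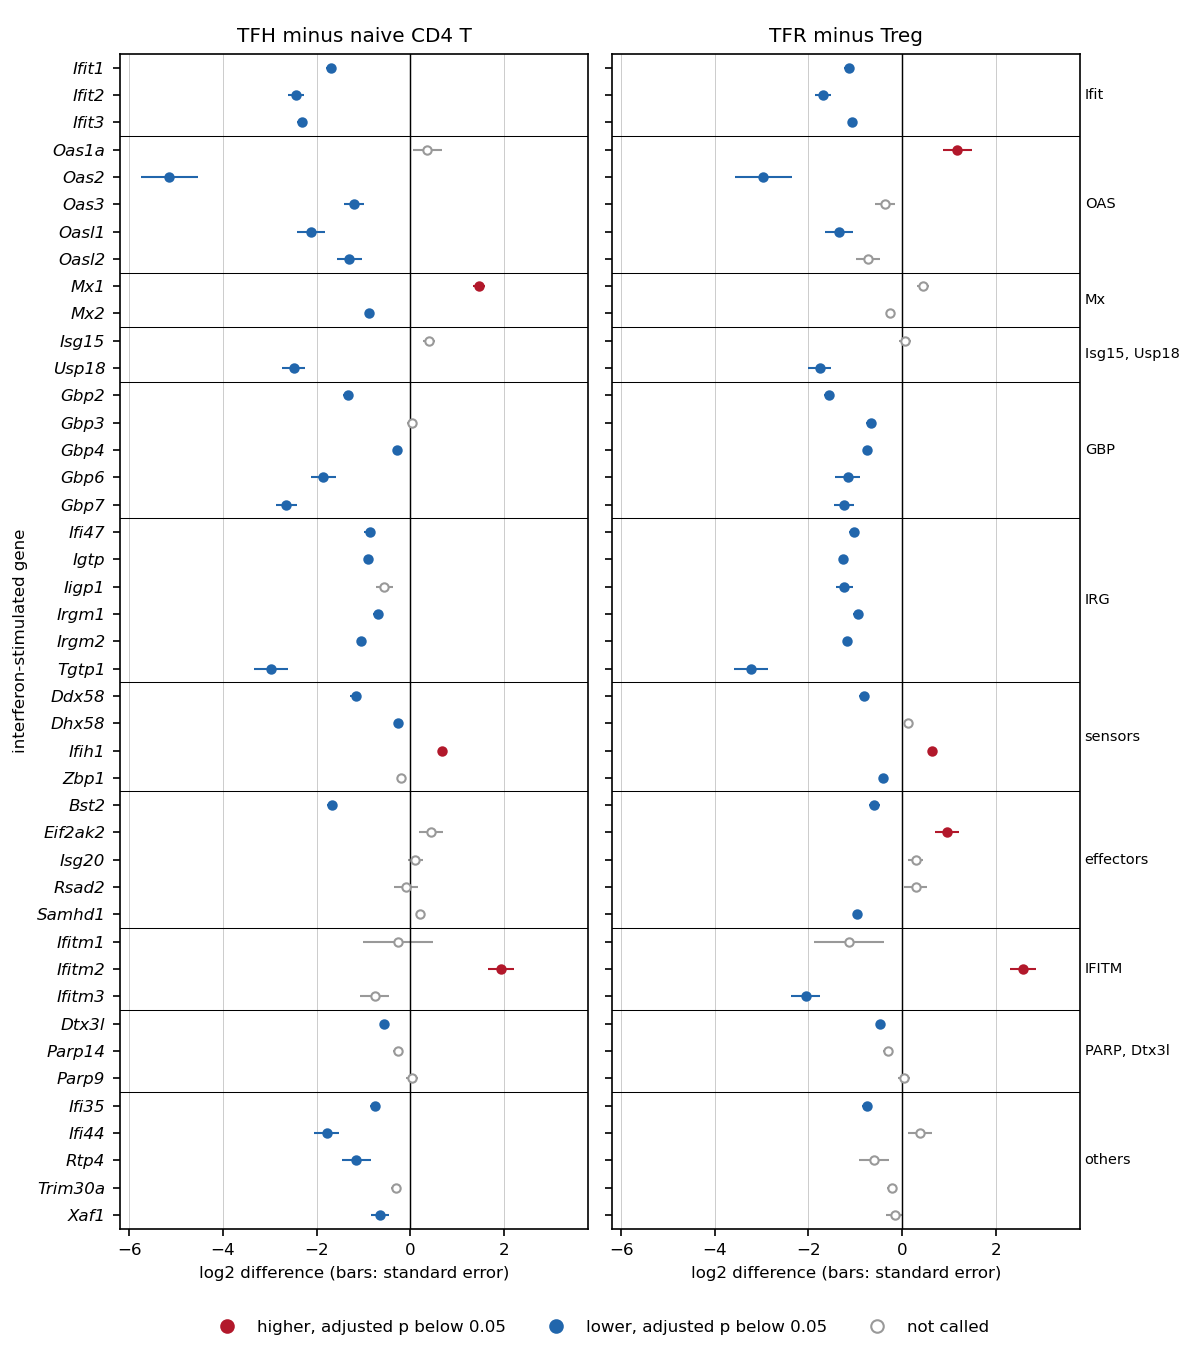
Log2 difference of TFH from naïve T cells (left) and of TFR from Treg cells (right) for each of the 43 interferon-stimulated genes (rows, grouped by family), with bars of 1 SE from limma, filled points where adjusted p was below 0.05 and a line at 0. Most points lie left of 0 in both panels, Oas2 and Tgtp1 lie farthest left, and Ifitm2 and Ifih1 are filled to the right of 0 in both.

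The Ifit proteins bind foreign RNA ends and block their translation, and all 3 Ifit genes were lower in both follicular cell types. Ifit3, whose probe lies at chr19:34663105-34663164 (build NCBI37), gave 8387 RU at d12 and 7428 RU at d25 in naïve T, 1544 and 1651 RU in TFH, 8864 and 8963 RU in Treg and 4295 and 4260 RU in TFR cells. Both TFH arrays were the lowest, both TFR arrays were intermediate, and neither overlapped with its PD1lo counterpart. The log2 difference was -2.31 ± 0.10 (SE, adjusted p = 0.000222) in TFH and -1.06 ± 0.10 (adjusted p = 0.0026) in TFR cells, which is 4.96-fold and 2.08-fold lower. Ifit2 gave 1552 and 1724 RU in naïve T, 233 and 382 RU in TFH, 1261 and 1769 RU in Treg and 365 and 598 RU in TFR cells. Its follicular arrays all lay below its other 4 arrays, by -2.45 ± 0.17 (adjusted p = 0.000616) in TFH and -1.68 ± 0.17 (adjusted p = 0.00285) in TFR cells. Ifit1 fell by 3.25-fold in TFH cells and by 2.2-fold in TFR cells (adjusted p = 0.000568 and 0.00276).

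The 2′-5′ oligoadenylate synthetases (Oas) make the messenger that activates RNase L upon contact with double-stranded RNA, and Oasl1 and Oasl2 are their Oas-like relatives. Of the 5 genes, 4 were lower in TFH cells and none higher, and in TFR cells 2 were lower and 1 higher. Oas2 (probe at chr5:121180343-121180402, NCBI37) gave 759 and 1031 RU in naïve T cells, 261 and 362 RU in Treg cells, 20 and 31 RU in TFH cells and 70 and 22 RU in TFR cells. It was well above background on all arrays of naïve T and Treg cells, on neither TFH array and on 1 of the 2 TFR arrays. Set against the lowest detectable signal, Oas2 was at least 25.5-fold lower in TFH than in naïve T cells (adjusted p = 0.00302). Oasl1, a negative regulator of Irf7 translation, read 2639 and 2505 RU in naïve T, 446 and 784 RU in TFH, 2210 and 2128 RU in Treg and 972 and 741 RU in TFR cells. All 4 follicular arrays were below the other 4, with differences of -2.12 ± 0.30 (adjusted p = 0.00498) and -1.35 ± 0.30 (adjusted p = 0.023). Oas3 and Oasl2 were called in TFH cells alone, by -1.20 ± 0.22 and -1.30 ± 0.26, and their values in TFR cells were -0.36 ± 0.22 and -0.73 ± 0.26.

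Oas1a ran the other way. It measured 5062 and 5687 RU in naïve T, 4338 and 10944 RU in TFH, 7029 and 8674 RU in Treg and 16092 and 19384 RU in TFR cells. Both TFR arrays were above all others, and the TFH arrays lay on either side of the naïve T arrays. Oas1a was 2.27-fold higher in TFR than in Treg cells (1.18 ± 0.31, adjusted p = 0.0385). This call held in 8 of 11 alternative settings of the processing and was lost on leaving out most of the single arrays. The probe is also annotated to the close relative Oas1g, so the signal of these genes cannot be told apart.

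The Mx GTPases trap viral nucleocapsids, although laboratory strains such as C57BL/6 are known to carry a defective Mx1. Mx1 was at 104 and 141 RU in naïve T, 310 and 361 RU in TFH, 285 and 276 RU in Treg and 361 and 403 RU in TFR cells. Both naïve T arrays lay below the other 6. Mx1 was 2.75-fold higher in TFH than in naïve T cells (1.46 ± 0.13, adjusted p = 0.00139), and its difference between TFR and Treg cells was 0.44 ± 0.13 (adjusted p = 0.0531). Mx2 moved in the other direction, by -0.88 ± 0.08 (adjusted p = 0.00141) in TFH cells.

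Isg15 is conjugated to proteins like ubiquitin, and Usp18 removes it and blocks signaling at Ifnar2. Usp18 (probe at chr6:121220874-121220933, NCBI37) gave 5276 and 5588 RU in naïve T, 682 and 1374 RU in TFH, 7989 and 9297 RU in Treg and 2438 and 2664 RU in TFR cells. The TFH arrays were the lowest and the Treg arrays the highest, with no overlap between cell types. Usp18 was 5.62-fold lower in TFH than in naïve T cells (-2.49 ± 0.25, adjusted p = 0.00192) and 3.39-fold lower in TFR than in Treg cells (-1.76 ± 0.25, adjusted p = 0.00734). Isg15 itself lay between 30942 and 48857 RU on all 8 arrays, with differences of 0.39 ± 0.13 (adjusted p = 0.0653) and 0.06 ± 0.13 (adjusted p = 0.747).

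**Figure D3:**
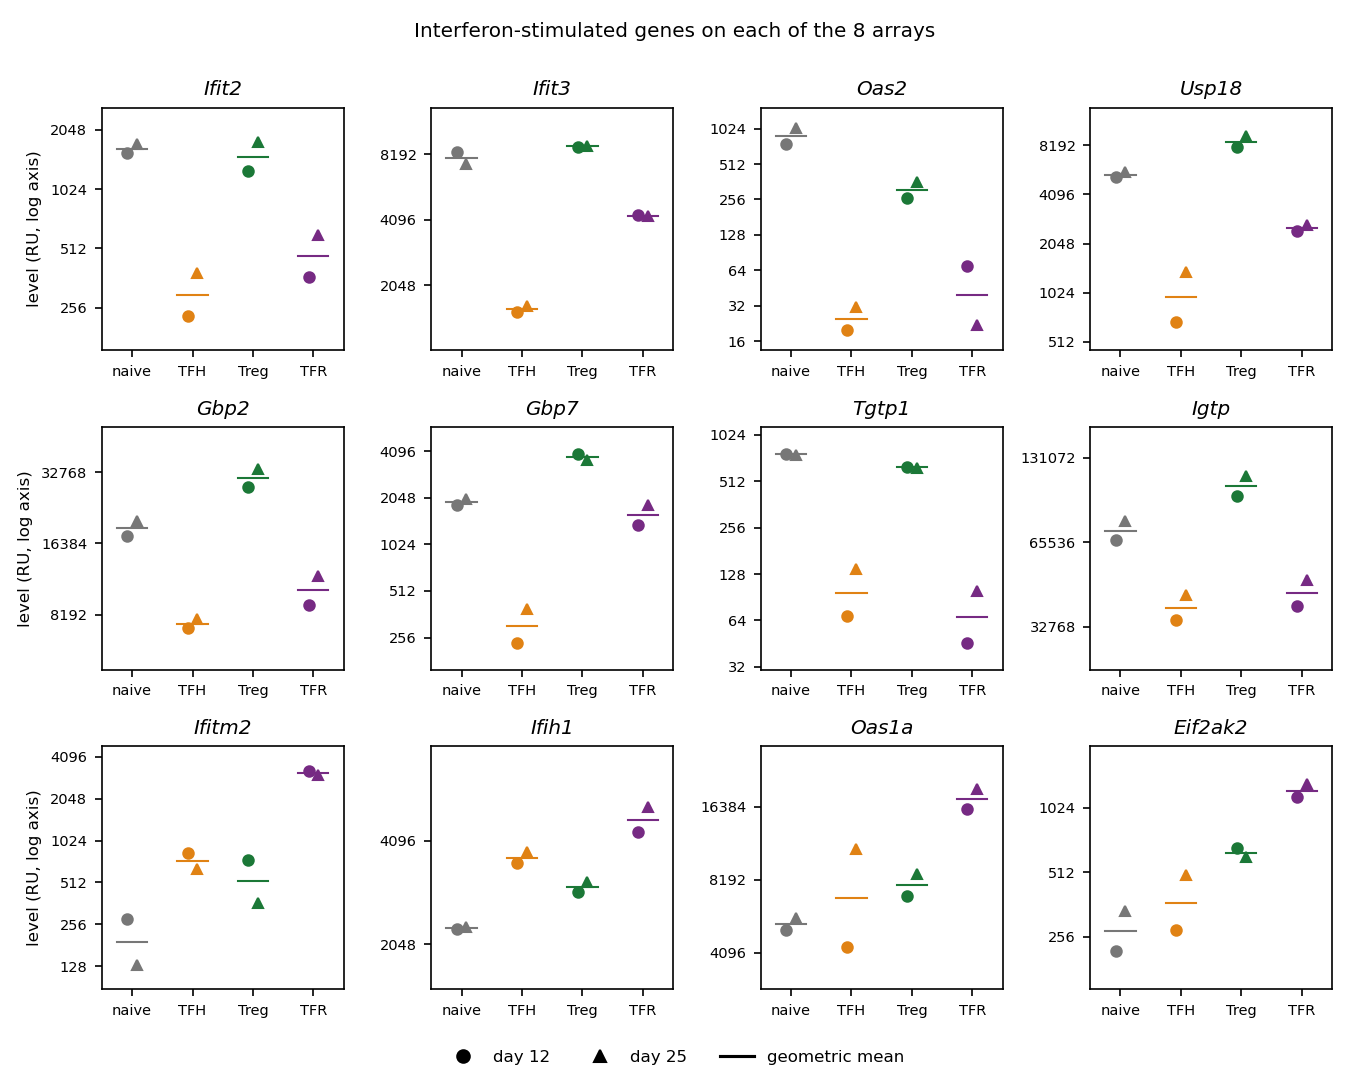
Signal in RU (log axis) of 12 interferon-stimulated genes in the 4 cell types, with a point for each array (d12 and d25) and a bar at the geometric mean. The TFH points are lowest for Ifit3, Usp18 and Gbp7 and overlap with the TFR points for Ifit2, whereas Ifitm2, Ifih1, Oas1a and Eif2ak2 peak in TFR cells.

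The GBPs are large GTPases that are induced strongly by interferon gamma and coat vacuoles and bacteria. Of the 5 genes, 4 were lower in TFH cells and all 5 in TFR cells. Gbp7 (probe at chr3:142209379-142209438, NCBI37) read 1829 and 2012 RU in naïve T, 238 and 392 RU in TFH, 3901 and 3594 RU in Treg and 1370 and 1839 RU in TFR cells. The TFH arrays lay far below all others, by -2.65 ± 0.22 (adjusted p = 0.001) or 6.28-fold from naïve T cells, and the TFR arrays were 2.36-fold below Treg cells (adjusted p = 0.012). Gbp2 measured 17645 and 20440 RU in naïve T, 7205 and 7868 RU in TFH, 28295 and 33862 RU in Treg and 9033 and 12004 RU in TFR cells. Each cell type kept its own range, and the differences were -1.33 ± 0.10 (adjusted p = 0.000832) in TFH and -1.57 ± 0.10 (adjusted p = 0.00108) in TFR cells. Gbp6 was 3.63-fold and 2.23-fold lower (adjusted p = 0.00531 and 0.0258), on a probe that is also annotated to Gbp10.

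Gbp3 separated the Foxp3+ from the Foxp3- cells instead. Its values were 1495 and 1759 RU in naïve T, 1487 and 1856 RU in TFH, 9503 and 10408 RU in Treg and 5414 and 7255 RU in TFR cells. Naïve T and TFH arrays overlapped, whereas all 4 Foxp3+ arrays were above them and the TFR arrays were below the Treg arrays. The log2 difference was 0.03 ± 0.10 in TFH cells (adjusted p = 0.805) and -0.67 ± 0.10 in TFR cells (adjusted p = 0.00886).

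The IRGs are small GTPases of the interferon gamma response that act on parasite vacuoles and on autophagy. In TFH cells 5 of the 6 genes were lower, and in TFR cells all 6. The largest difference belonged to Tgtp1, with 765 and 760 RU in naïve T, 68 and 138 RU in TFH, 635 and 620 RU in Treg and 46 and 99 RU in TFR cells. The follicular arrays were all far below the others, and 1 of the 2 TFR arrays was not well above background. Tgtp1 was lower by -2.98 ± 0.36 on the log2 scale in TFH cells (adjusted p = 0.00317) and by -3.22 ± 0.36 in TFR cells (adjusted p = 0.00383), and its probe is also annotated to Tgtp2. Ifi47 gave 119019 and 149571 RU in naïve T, 58784 and 90125 RU in TFH, 125044 and 152691 RU in Treg and 59787 and 78125 RU in TFR cells. The follicular arrays again lay below the others and those of TFH and TFR cells overlapped, with differences of 1.83-fold and 2.03-fold from the PD1lo cells. Igtp read 66546 and 77827 RU in naïve T, 34473 and 42420 RU in TFH, 95696 and 112386 RU in Treg and 38830 and 47922 RU in TFR cells. It was 1.88-fold lower in TFH cells (adjusted p = 0.00128) and 2.41-fold lower in TFR cells (adjusted p = 0.00106), and Irgm2 with its similar promoter was 2.07-fold and 2.25-fold lower. Irgm1 was 1.62-fold and 1.92-fold lower. Iigp1 differed by -0.56 ± 0.18 in TFH cells (adjusted p = 0.0602) and was lower by -1.23 ± 0.18 in TFR cells (adjusted p = 0.00806).

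The cytoplasmic sensors did not move together. Ddx58, encoding RIG-I, was 2.25-fold lower in TFH cells (adjusted p = 0.00144) and 1.75-fold lower in TFR cells (adjusted p = 0.00599). Ifih1, encoding MDA5, stood at 2272 and 2306 RU in naïve T, 3533 and 3791 RU in TFH, 2912 and 3100 RU in Treg and 4342 and 5143 RU in TFR cells. The ranges of the 4 cell types did not overlap, and Ifih1 was 1.6-fold higher in TFH (0.68 ± 0.09, adjusted p = 0.00468) and 1.57-fold higher in TFR cells (0.65 ± 0.09, adjusted p = 0.00705). A second, dimmer Ifih1 probe, above background on 4 of the 8 arrays, gave 1.79 in TFH and 0.10 in TFR cells. Dhx58, a regulator of both, was lower in TFH cells by -0.27 ± 0.08 (adjusted p = 0.0442), a call lost on leaving out any of the 8 arrays (highest adjusted p = 0.204), and Zbp1, a sensor of Z-form nucleic acid, in TFR cells by -0.40 ± 0.08 (adjusted p = 0.0157).

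Among the 5 antiviral effectors, Bst2 (tetherin, which holds budding virions at the membrane) was the only gene lower in both. It gave 52642 and 47007 RU in naïve T, 15003 and 16372 RU in TFH, 58364 and 53168 RU in Treg and 38751 and 35194 RU in TFR cells. TFH and TFR arrays were separate from each other and from the rest, at -1.67 ± 0.11 (adjusted p = 0.000553) and -0.59 ± 0.11 (adjusted p = 0.0136). Samhd1, which depletes deoxynucleotides, was at 57894 and 68122 RU in naïve T, 66481 and 78521 RU in TFH, 115139 and 133777 RU in Treg and 60499 and 67527 RU in TFR cells. Only the Treg arrays stood apart, and TFR cells were 1.95-fold below them (-0.96 ± 0.08, adjusted p = 0.00195) while TFH cells differed from naïve T cells by 0.20 ± 0.08 (adjusted p = 0.0952). Eif2ak2, the RNA-dependent kinase PKR, read 219 and 339 RU in naïve T, 275 and 496 RU in TFH, 663 and 601 RU in Treg and 1145 and 1320 RU in TFR cells. Both TFR arrays were highest, 1.95-fold above Treg cells (0.96 ± 0.26, adjusted p = 0.0389). This call held in 9 of 11 alternative settings of the processing and was lost on leaving out most of the single arrays. Isg20, an exonuclease, and Rsad2, encoding viperin, were called in neither comparison.

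The IFITM proteins sit in membranes and hinder viral fusion, and the 3 genes showed 3 patterns. Ifitm2 (probe at chr7:148140881-148140940, NCBI37) gave 279 and 131 RU in naïve T, 831 and 637 RU in TFH, 745 and 367 RU in Treg and 3252 and 3062 RU in TFR cells. TFR arrays were far above all others, naïve T arrays were the lowest, and TFH and Treg arrays overlapped. Ifitm2 was 3.81-fold higher in TFH than in naïve T cells (1.93 ± 0.28, adjusted p = 0.00573) and 6.02-fold higher in TFR than in Treg cells (2.59 ± 0.28, adjusted p = 0.0036). Ifitm3 read 837 and 445 RU in naïve T, 314 and 413 RU in TFH, 1973 and 1898 RU in Treg and 480 and 448 RU in TFR cells. Only the Treg arrays stood clearly above the rest, and Ifitm3 was 4.17-fold lower in TFR than in Treg cells (-2.06 ± 0.31, adjusted p = 0.0083). Ifitm1 was not above background on either TFR array and on 1 array each of naïve T and Treg cells, with values between 20 and 294 RU, and it was called in no comparison.

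In the PARP group and among the remaining genes, Dtx3l and Ifi35 were lower in both follicular cell types. Dtx3l, a ubiquitin ligase that partners with Parp9, was lower by -0.57 ± 0.08 (adjusted p = 0.00468) and -0.47 ± 0.08 (adjusted p = 0.0105), and neither Parp9 nor Parp14 was called. Ifi35 was lower by -0.76 ± 0.10 and -0.75 ± 0.10 (adjusted p = 0.00412 and 0.00609). Rtp4, Xaf1 and Ifi44 were lower in TFH cells, by -1.15 ± 0.32, -0.64 ± 0.19 and -1.79 ± 0.26, and were not called in TFR cells. A second Xaf1 probe gave -2.08 in TFH and -0.98 in TFR cells. Further Dtx3l probes gave -1.17 and -0.67 in TFH cells and -1.25 and -0.79 in TFR cells. In TFR cells second probes gave -1.96 for Iigp1 and -0.79 for Zbp1, so the size of these differences depends on the probe. Trim30a was called in neither comparison.

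In the direct comparison, which shares its arrays with those above, 19 of the 43 genes were higher in TFR than in TFH cells and none was lower (limma), against 22.1% of all genes called in this comparison, 11.6% as higher and 10.5% as lower. The median difference was 0.45, against -0.02 over all genes. At an unadjusted p below 0.05 there were 24 higher and 0 lower genes, and 37.5% of all genes had such a p. Gbp7 and Gbp3 led this comparison besides Ifitm2, at 5.21-fold (2.38 ± 0.22, adjusted p = 0.00338), 3.78-fold (1.92 ± 0.10, adjusted p = 0.000992) and 4.35-fold (2.12 ± 0.28, adjusted p = 0.00945). Eif2ak2 followed with 3.32-fold (adjusted p = 0.0126). Gbp6 was 2.99-fold higher in TFR cells (adjusted p = 0.0174), on arrays of 1841 and 2938 RU against 486 and 1239 RU. The IRG family contributed only Irgm2 (0.35 ± 0.08, adjusted p = 0.037). Fewer calls were made among these genes on leaving out any array except TFH d25, and among all genes on leaving out any array. The median difference was 0.35 without TFH d12, 0.74 without TFH d25 and between 0.43 and 0.45 without any other array. The calls that held without each array were Bst2, Dhx58, Gbp3, Gbp7, Ifit3 and Mx2. With slide in place of day there were 8 calls, against 8.58% of all genes.

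Treg cells exceeded naïve T cells in 8 of the 43 genes and in none was the difference called in the other direction, against 9.88% of all genes called, 5.89% as higher and 3.98% as lower. The median difference was 0.33 (all genes -0.02). At an unadjusted p below 0.05 there were 23 higher genes and 1 lower gene, and 27.4% of all genes had such a p. Gbp3 led with 6.15-fold (2.62 ± 0.10, adjusted p = 0.000943), on the arrays given above. Next were Ifitm3 at 3.16-fold (adjusted p = 0.0387), Ifitm2 at 2.73-fold (adjusted p = 0.043), Mx1 at 2.31-fold (adjusted p = 0.00971) and Samhd1 at 1.97-fold (adjusted p = 0.00396), and the other 3 were Gbp2, Igtp and Irgm2. The call for Gbp3 alone held under every setting and without each array. Without 1 array the calls became fewer, except without a TFH array, where they rose, and the share of all genes called moved the same way. The median difference lay between 0.31 and 0.35 in these fits.

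Whether the change from PD1lo to PD1hi cells differed between Foxp3+ and Foxp3- cells was tested as an interaction, the TFR minus Treg difference minus the TFH minus naïve T difference. It was called for 6 of the 43 genes, with 4 positive and 2 negative values, against 8.49% of all genes, 4.03% positive and 4.46% negative. Ifit3 (1.25 ± 0.14, adjusted p = 0.0136), Bst2 (1.07 ± 0.15, adjusted p = 0.0224) and Mx2 (0.63 ± 0.11, adjusted p = 0.0403) had the larger decrease in the Foxp3- branch, and the TFR minus Treg difference of Mx2 was -0.25 ± 0.08 (adjusted p = 0.0627). Mx2 gave 659 and 511 RU in naïve T, 367 and 271 RU in TFH, 820 and 649 RU in Treg and 694 and 541 RU in TFR cells. Ifi44 (2.17 ± 0.37, adjusted p = 0.0354) gave 213 and 251 RU in naïve T, 42 and 107 RU in TFH, 129 and 222 RU in Treg and 171 and 286 RU in TFR cells, with 1 of the 2 TFH arrays not well above background. Its TFH arrays were the lowest, and its Treg and TFR arrays overlapped. The negative values were those of Samhd1 (-1.16 ± 0.11, adjusted p = 0.00988), called as lower in TFR but not in TFH cells, and Mx1 (-1.02 ± 0.19, adjusted p = 0.0421), called as higher in TFH but not in TFR cells. No call held without each array, and all were lost without naïve T d12, Treg d12, TFR d12 or Treg d25. The calls were also fewer without TFR d25, naïve T d25 or TFH d12 and rose only without TFH d25. The share of all genes called was lower without any of the 8 arrays. The median interaction of the 43 genes lay between 0.07 and 0.39 in these fits, against 0.20 with all arrays.

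**Figure D4:**
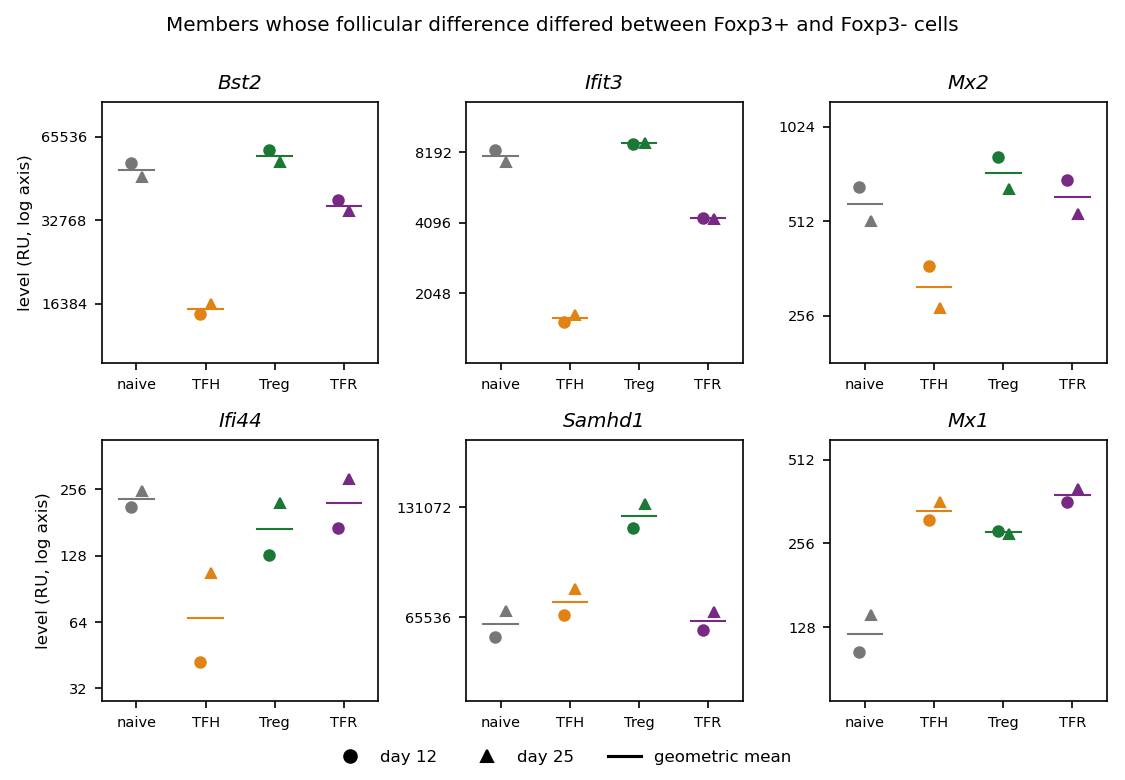
Signal in RU (log axis) of the 6 genes whose follicular change differed between the Foxp3- branch (naïve T to TFH) and the Foxp3+ branch (Treg to TFR), with a point for each of the d12 and d25 arrays and a bar at their geometric mean. For Bst2, Ifit3 and Mx2 the TFH points lie farther below naïve T cells than the TFR points lie below Treg cells. For Ifi44 the TFH points are the lowest, with a Treg point close above them. Samhd1 stands out in Treg cells, and Mx1 is low in naïve T cells only.

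Between d25 and d12 no interferon-stimulated gene was called by limma, against 0.0698% of all genes (0.019% higher and 0.0508% lower), although 18 had an unadjusted p below 0.05, 13 of them higher at d25 (28.8% of all genes had such a p). The differences ranged from -2.27 ± 0.53 for Ifitm1 to 0.78, with a median of 0.14. The smallest adjusted p was 0.068, for Mx2 (-0.38 ± 0.06).

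For the pathway itself, 34 of 43 listed genes were tested. Among the ligands, Ifng gave 162 and 95 RU in naïve T, 1050 and 1804 RU in TFH, 130 and 239 RU in Treg and 2452 and 3489 RU in TFR cells. All follicular arrays were far above the others, 11.1-fold in TFH cells (3.47 ± 0.43, adjusted p = 0.00349) and 16.6-fold in TFR cells (4.05 ± 0.43, adjusted p = 0.00343). The type I interferon genes Ifna1, Ifna2, Ifna4 and Ifnb1 were not well above background in any cell type by the rule used and were not tested. Both chains of the interferon gamma receptor ran opposite to the ligand. Ifngr2 read 6638 and 7432 RU in naïve T, 1118 and 1704 RU in TFH, 6000 and 6176 RU in Treg and 1755 and 1617 RU in TFR cells. The follicular arrays were below all others, by -2.35 ± 0.19 (adjusted p = 0.000976) and -1.85 ± 0.19 (adjusted p = 0.0031), and Ifngr1 differed by -1.08 ± 0.15 and -1.33 ± 0.15 (adjusted p = 0.00467 and 0.00384).

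Of the type I receptor, Ifnar1 was lower in TFH (-0.89 ± 0.15, adjusted p = 0.00911) and TFR cells (-0.81 ± 0.15, adjusted p = 0.0148), while Ifnar2 was higher in TFH cells (0.91 ± 0.11, adjusted p = 0.00311). Downstream, Irf9 was lower by -0.95 ± 0.08 and -0.82 ± 0.08 (adjusted p = 0.00107 and 0.00271), and Stat2 by -0.49 ± 0.10 and -0.37 ± 0.10 (adjusted p = 0.0155 and 0.0389). The kinase Jak2 was higher, by 1.63 ± 0.10 and 0.64 ± 0.10 (adjusted p = 0.000483 and 0.00923). Among the regulatory factors, Irf1 and Irf7 were lower in both and Irf5 and Irf8 higher in both. Ptpn11, the phosphatase SHP2 that can dampen interferon signaling, rose by 3.52 ± 0.13 in TFH cells (adjusted p = 0.000176) and by 1.33 ± 0.13 in TFR cells (adjusted p = 0.00268). In all, 9 pathway genes (26.5%) were higher and 13 (38.2%) lower in TFH cells, against 20.9% and 25.6% of all genes, with a median of -0.10 against -0.07. In TFR cells 5 (14.7%) were higher and 13 (38.2%) lower, against 18.7% and 20.9%, with a median of -0.17 against -0.08.

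**Figure D5:**
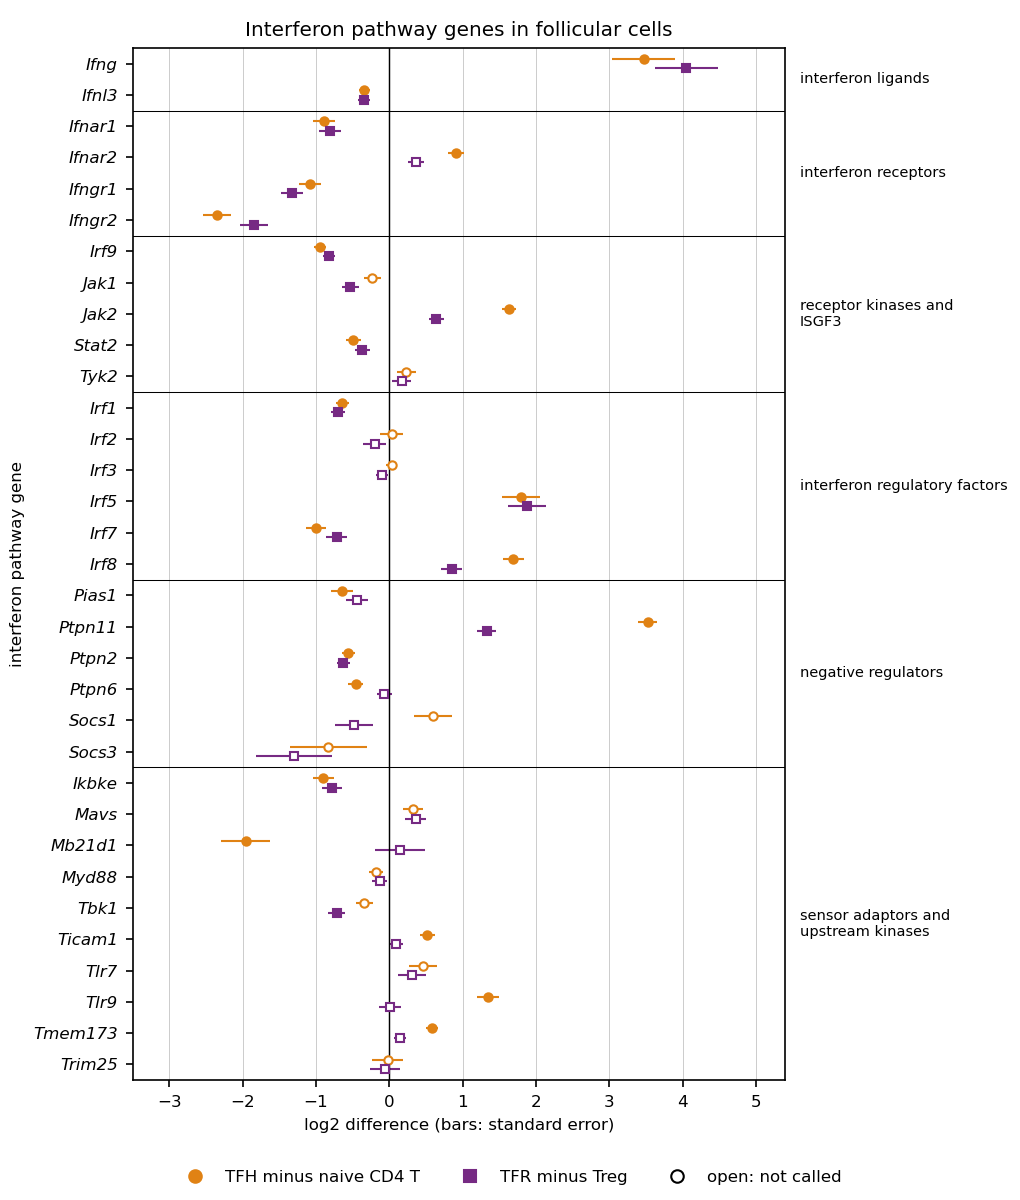
Log2 difference of TFH from naïve T cells and of TFR from Treg cells for tested genes of the interferon pathway, grouped by role, with error bars of 1 SE from limma and filled points where adjusted p was below 0.05. Ifng is far to the right in both comparisons and Ifngr2, Ifngr1, Ifnar1 and Irf9 lie to the left.

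A further list of 62 interferon-induced genes outside the 43, of which 57 were tested, held 23 lower (40.4%) and 11 higher genes (19.3%) in TFH cells, against 25.6% and 20.9% of all genes, with a median of -0.21 against -0.07. In TFR cells 23 (40.4%) were lower and 5 (8.77%) higher, against 20.9% and 18.7%, with a median of -0.31 against -0.08. Tgtp2 (-1.93 and -2.06, adjusted p = 0.000905 and 0.00144) and Gbp8 (-1.58 in TFH cells, adjusted p = 0.00209) resembled their relatives above. The list is not fully separate from the 43 genes. It includes Tgtp2 and Gbp10, to which the Tgtp1 and Gbp6 probes above are also annotated, so these signals cannot be fully told apart. Cxcl10, a chemokine that attracts Cxcr3+ T cells, was the gene with the largest increase, reading 115 and 118 RU in naïve T, 860 and 1182 RU in TFH, 703 and 632 RU in Treg and 6353 and 7869 RU in TFR cells. No arrays of different cell types overlapped, and Cxcl10 was 8.63-fold higher in TFH than in naïve T cells (adjusted p = 0.000356) and 10.6-fold higher in TFR than in Treg cells (adjusted p = 0.00063). Apol9b, at 2163 and 3342 RU in naïve T cells and between 9423 and 17800 RU elsewhere, had an interaction of -2.34 (adjusted p = 0.00363).

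The labelled cell types carried their markers, since Foxp3 lay between 37266 and 49262 RU in Treg and TFR cells and between 66 and 358 RU in the others. Markers of cell types that could be carried along moved with the groups in part, although the B220- gate is set against B cells and plasmacytoid dendritic cells, which carry B220, and the CD4+ gate against CD8 T cells. The summed signal of plasmacytoid dendritic cell markers (6 of 7 tested) was 94787 to 105633 RU in naïve T, 75082 to 85809 RU in TFH, 85097 to 85893 RU in Treg and 67837 to 74592 RU in TFR cells. Siglech, the largest term of that sum, differed by -0.41 ± 0.13 (adjusted p = 0.0529) and -0.37 ± 0.13 (adjusted p = 0.0776). The 6 markers did not move together, with calls in both directions in each comparison. Their log2 differences ranged from -2.10 to 1.39 in TFH and from -4.20 to 0.94 in TFR cells. B cell markers (5 of 8 tested) summed to 5423 to 7269 RU in naïve T, to 7581 to 15908 RU in TFH, to 9618 to 10002 RU in Treg and to 7647 to 8592 RU in TFR cells. NK cell markers (3 of 5 tested), whose cells also make interferon gamma, summed to 1457 to 1744 RU in naïve T, 1894 to 4581 RU in TFH, 484 to 654 RU in Treg and 898 to 1053 RU in TFR cells. Klrb1c, chosen after its values were seen, was high where Ifng was, at 162 and 96 RU in naïve T, 1484 and 3077 RU in TFH, 77 and 35 RU in Treg and 820 and 752 RU in TFR cells, whereas the other NK markers, Eomes and Klra8, had differences of -0.95 each in TFH and of -1.62 and -0.97 in TFR cells, none of them called. CD8 T cell markers (2 of 2) summed to 4957 to 5118 RU in naïve T, 2114 to 3174 RU in TFH, 4208 to 4565 RU in Treg and 2110 to 2235 RU in TFR cells, lower in the follicular cells like most of the interferon-stimulated genes. Germinal center B cell markers (3 of 5) summed to 5573 to 6702 RU in naïve T, 17830 to 22343 RU in TFH, 8361 to 10277 RU in Treg and 7033 to 8982 RU in TFR cells. Myeloid markers (7 of 9) summed to between 51387 and 67281 RU, a range that hides single markers. Their log2 differences ranged from -0.51 to 2.98 in TFH cells, called in both directions. In TFR cells they ranged from -0.35 to 2.76, called only as higher. Proliferation genes (7 of 8) summed to 1931 to 2824 RU in naïve T, 13897 to 22118 RU in TFH, 5703 to 6785 RU in Treg and 34282 to 54354 RU in TFR cells. The part of these cells in the differences of Ifng and of the interferon-stimulated genes was not tested.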

How the data were processed

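Sorted cell populations were measured on Agilent 1-color arrays, 1 array per cell type and day. The authors deposited, per the file headers, scanner output of Agilent Feature Extraction 10.7.3.1 with the processed intensity of each spot. They also deposited a table of normalized intensities. Taken to log2, these had r = 0.9994 with the values computed here, and they served as an alternative. Here, spots flagged as outliers or with a pixel coefficient of variation above 0.5 were excluded, as were spots outside interquartile fences. The 4 spots of a probe were combined by geometric mean, quantile normalized, scaled to a 75th percentile of 1500, floored at 20 and taken to log2. The brightest probe stood for a gene. Differences were fitted on all 8 arrays with limma 3.58.1 (R 4.3.3), with additive terms for cell type and for day and 3 residual degrees of freedom, so that unequal changes with day enter the error. Benjamini-Hochberg adjustment ran over all 15763 genes, and adjusted p below 0.05 was called.

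The day is the replicate number, and the term for day is therefore the replicate block. Full values are given for up to 5 called genes with the largest difference per direction and comparison that were above background on both sides with the same sign at both days, for genes not above background on 1 side and for the 3 highest mean signals, and up to 2 called genes per further list served as examples. A few others were named after their values were seen. The members and lists were chosen with earlier results of these data known. Alternatives changed the normalization, background correction, source of values, spot exclusion, floor, filter on dim probes, choice of probe, day term, slide, variance prior and the set of arrays. The number of arrays limits the precision. Protein sequences were not used here, and some items are not reported here. Promoter windows were from RefSeq (GRCm38.p6) and probe positions from the scanner files (NCBI37).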

Additional observations from a re-analysis of the deposited data

Results flagged for a closer look

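For 6 of the 43 genes the change from PD1lo to PD1hi cells differed between the Foxp3+ and the Foxp3- branch by limma's interaction term, against 8.49% of all genes. None of the 6 calls held without each array. All were lost without the naïve T d12, Treg d12, TFR d12 or Treg d25 array, and the share of all genes called was also lower in these fits. The log2 value of the interaction was 2.17 for Ifi44, 1.25 for Ifit3, 1.07 for Bst2, 0.63 for Mx2, -1.02 for Mx1 and -1.16 for Samhd1. Ifit3, Bst2 and Mx2 lay farther below naïve T cells in TFH than below Treg cells in TFR cells, Ifi44 was lower in TFH cells and 0.38 above Treg cells in TFR cells (adjusted p = 0.296), Mx1 was higher in TFH cells and Samhd1 lower in TFR cells.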

How the results depend on the processing

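No called difference reversed its direction under any alternative, and every called gene had the same sign within d12 and within d25. Of the 29 genes called between TFH and naïve T cells, 22 were called under all alternatives and without each array, and of the 28 called between TFR and Treg cells 12 were. These counts cover the alternatives in which a gene was tested. Ifi44, Oas2 and Tgtp1 were not tested in the setting of genes above background on all 8 arrays. Shares in parentheses are of all genes called in the same setting. Omitting the day term, which removes the replicate block, gave 25 (35%) and 23 calls (26.9%) in these comparisons, in place of 29 (46.5%) and 28 (39.6%). It gave 11 calls (14%) between TFR and TFH cells in place of 19 (22.1%). Between Treg and naïve T cells it gave 4 (6.35%) in place of 8 (9.88%), with 3 interactions (5.12%) in place of 6 (8.49%). With slide in place of day these last 3 counts were 8 (8.58%), 4 (3.32%) and 2 (4.38%). Without a filter on dim probes there were 10 calls (5.51%) between TFR and TFH cells and 3 interactions (1.4%). Between days that setting gave 1 call (0.0434%) in place of 0 (0.0698%). Between Treg and naïve T cells there were 17 calls with normexp background correction (11.3% of all genes), 13 among genes above background on all 8 arrays (10.3%) and 15 with a variance prior with trend (13.5%). Between days the same settings gave 3, 3 and 7 calls, while the share of all genes called rose from 0.0698% to 5.44%, 6.68% and 7.93%. The causes were not tested. Leaving out 1 array gave 24 to 28 calls for TFH against naïve T cells, 14 to 31 for TFR against Treg cells, 7 to 19 for TFR against TFH cells, 1 to 13 for Treg against naïve T cells, 0 to 9 interactions, 0 to 0 between days and 29 to 39 in the F test. Outside the F test, the share of all genes called was also lower in each such fit that gave fewer calls. Where an array was left out, the remaining array of that cell type was taken to vary like the others. Signal over background limits Oas2, Ifitm1, Ifi44 and Tgtp1, which were not well above background on all arrays.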
